A study of Mus musculus with 9 samples.

Results

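The enzymes that write, read and erase marks on chromatin, and the remodellers that move nucleosomes, were followed here in RAW 264.7 cells, a mouse macrophage line. Members were taken by gene symbol: every probe set whose platform annotation gave 1 symbol beginning with Hdac, Smarc, Kdm, Kmt, Setd, Dnmt or Sirt, together with Ezh1, Ezh2, Suz12, Eed and Uhrf1 and without Kdm5d. Earlier results of these data were known when the members were chosen. A probe set is a group of short array probes that read 1 transcript or a few like it. The rule took 103 of 22626 probe sets, for 59 of 12393 named genes, and 31 of the 59 genes had 2 or more probe sets. Updating the symbols left the same 103. The names also take in partners that carry no catalytic activity, such as Suz12, Eed, Dnmt3l and several Smarc subunits.

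The series holds 9 Affymetrix arrays of total RNA, 3 in each of 3 groups. Untreated cells were the control, a second group was stimulated for 18 h with 100 ng/ml LPS, a lipopolysaccharide of bacterial walls, and the last group came from cells labelled as over-expressing CstF-64 at all times. CstF-64 is the RNA-binding subunit of the cleavage stimulation factor, which helps to form the 3′ ends of mRNAs. All groups are the same cell line. The construct, its promoter and whether the over-expressing cells were 1 clone or a pool were not given in the labels, which name no empty-vector control. Whether the 3 arrays of a group came from separate cultures was not given either, so the p-values speak only of the spread among these arrays, and that spread may be technical.

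DNA methyltransferases put methyl groups on cytosine, and Dnmt1, guided by Uhrf1, copies the pattern to the new strand after DNA replication. Polycomb repressive complex 2, built from Ezh1 or Ezh2 with Suz12 and Eed, methylates lysine 27 of histone H3, while Kmt, Setd and Kdm enzymes add and remove other methyl marks and Hdac and Sirt enzymes remove acetyl groups. Smarc proteins form remodellers that slide or evict nucleosomes. The part of these systems in the response to LPS was not tested.

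The arrays had been brought to 1 level before deposit: with 2% of the values trimmed at each end, the array means were 150.05 to 150.07, and their medians between 42.75 and 49.3 after LPS and between 51.1 and 54.2 in the others. LPS array 1 stood farthest from its own group, with a mean correlation to it of 0.966 across probe sets, followed by CstF-64 array 1 with 0.975, against 0.977 to 0.985 for the others. Of 10 measured macrophage markers, 9 lay above the background limit in all arrays and Mertk did not; the 4 T-cell markers lay at or below it in all arrays, as did 2 of 4 B-cell, 5 of 6 fibroblast and endothelial and 1 of 3 granulocyte markers. The background limit, 31.2 intensity units, is the highest value of 27 control probe sets for bacterial transcripts. Cstf2, which encodes CstF-64, was no higher in the arrays labelled CstF-64: its brighter probe set read 358.0 ± 38.4 (SD, n = 3) there and 377.7 ± 18.0 (SD, n = 3) untreated (log2 difference -0.08, limma adjusted p = 1.00). The dimmer probe set gave -0.36 (limma adjusted p = 0.763). Whether these probe sets would read the construct is not known, so they cannot decide whether CstF-64 was over-expressed. The arrays are therefore called "labelled CstF-64" below.

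After LPS, the members that changed mostly fell. With limma, 21 member probe sets from 13 genes were lower and 3 from 3 genes were higher at an adjusted p under 0.05, out of 103. That is 20.4% lower and 2.91% higher, beside 10.7% lower and 5.93% higher over all 22626 probe sets tested. Of the 21 lower probe sets, 9 were of the DNA methylation genes, 5 of these of Dnmt3a alone, so the members did not fall evenly. The median log2 change was -0.30 over the members and -0.04 over all probe sets, and 77 of 103 members were below 0. Taking 1 probe set per gene, the brightest, 10 of 59 member genes (16.9%) were lower and 2 higher, against 10.4% lower and 6.67% higher of all 12393 genes. Members were also measured above background more often than other probe sets, 68.9% against 49.6% in all arrays. Among probe sets whose mean over the arrays exceeded the limit, 24 of 78 members (30.8%) were lower, beside 19.6% of all 13592 such probe sets.

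The count moved with the scaling and with single arrays. Centring the arrays on their medians shifted the median of all probe sets from -0.04 to 0.12. It gave 12 member probe sets lower and 5 higher, beside 1455 lower and 2228 higher over all probe sets. Quantile normalization gave 14 members lower and 4 higher, beside 1778 lower and 1528 higher over all probe sets. Over all probe sets, the share of calls that were lower went from 64.3% as deposited to 53.8% after quantile normalization and 39.5% after median centring. Without untreated array 2, 12 member probe sets were lower, and the count over all probe sets went from 2414 to 1475. Without LPS array 1, 28 members were lower, while the count over all probe sets went to 2213.

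The families differed in how many members fell. Over all probe sets tested, 10.7% fell and 5.93% rose. Of the 12 probe sets of the DNA methylation genes, 9 from 3 genes fell (75%), with a median log2 change of -0.99. After quantile normalization or median centring, 6 of the 12 fell. Among the 11 probe sets of Polycomb repressive complex 2, 3 fell (27.3%, median -0.45), and of 24 Smarc probe sets 5 fell (20.8%, median -0.36). Quantile normalization gave 2 and 3 lower in these families, and median centring 2 and 2. The count of lower probe sets in the whole series was 1778 after quantile normalization and 1455 after median centring, against 2414 as deposited. In the other families the share that fell was near or below that of all probe sets. Of 25 Kmt and Setd probe sets 1 fell and 1 rose (4% each, median -0.29). Of 16 Kdm probe sets 2 fell (12.5%, median -0.15) and of 10 Hdac probe sets 1 fell (10%, median -0.41). Of 5 Sirt probe sets 1 rose (median 0.15). The Kdm median turned to 0.01 under median centring. No test compared one family with another.

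**Figure D1:**
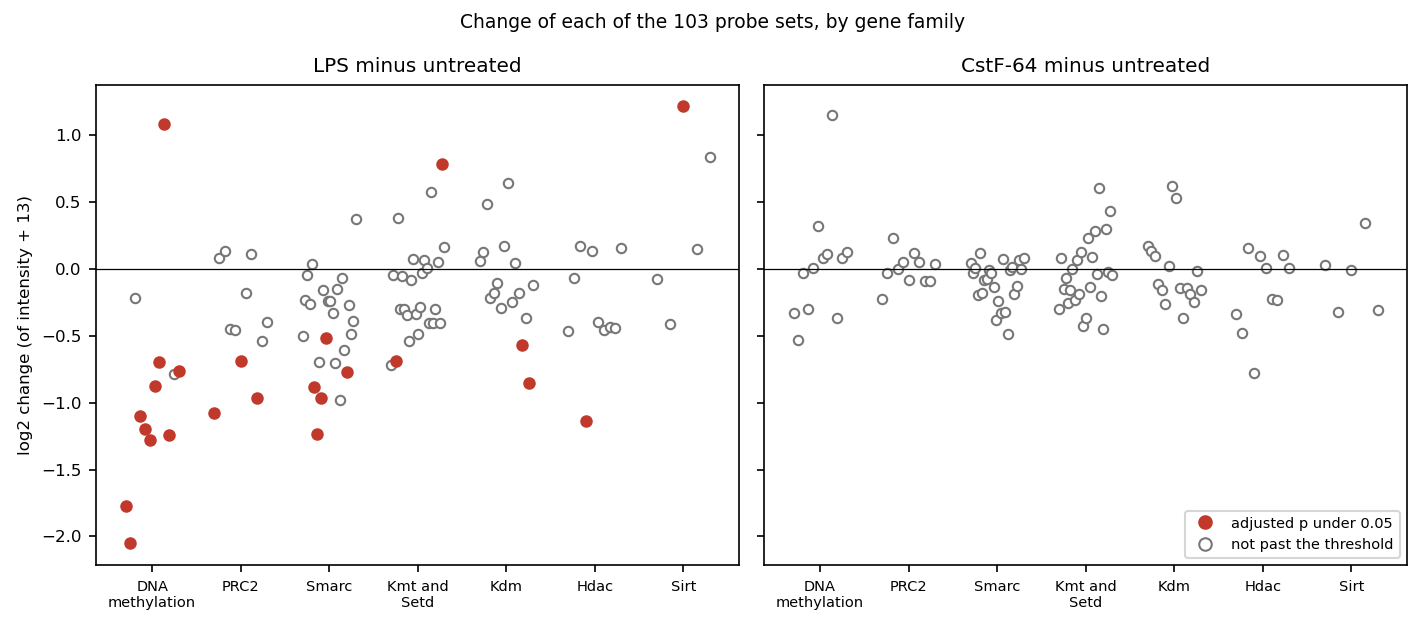
Log2 change of each member probe set after LPS and in the arrays labelled CstF-64, each against the untreated arrays, by family, with filled points for an adjusted p under 0.05. After LPS the DNA methylation probe sets reach furthest below 0, down to -2.05, while none of the 103 members is called in the arrays labelled CstF-64.

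Uhrf1, on chromosome 17, had the largest fall on the log2(intensity + 13) scale. Its brighter probe set, 1415810_at, read 201.1, 217.4 and 147.7 in the untreated arrays, 43.1, 51.8 and 41.3 after LPS, and 196.1, 121.4 and 130.3 in the arrays labelled CstF-64. Every LPS array was below every other array. The log2 change after LPS was -1.78 (SE 0.21, limma adjusted p = 0.000352). The second probe set, 1415811_at, read 67.6, 107.1 and 89.9 untreated and 12.1, 15.2 and 6.8 after LPS, where it was at or below background, so the fall was at least 2.78-fold (log2 -2.05, limma adjusted p = 0.00013). Both probe sets of the gene thus fell.

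Dnmt1, the maintenance methyltransferase that Uhrf1 brings to newly copied DNA, also fell in both of its probe sets. Probe set 1422946_a_at read 798.5, 998.6 and 1001.1 untreated and 316.6, 493.3 and 496.3 after LPS, with no overlap. The log2 change was -1.10 (SE 0.18, limma adjusted p = 0.0025). Probe set 1435122_x_at, whose name marks probes that may also match other transcripts, changed by -1.24 (limma adjusted p = 0.000357).

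Dnmt3a, a methyltransferase that sets new methylation, was lower in all 5 of its probe sets. The brightest, 1423064_at, read 233.8, 301.0 and 268.2 untreated, 103.3, 96.1 and 108.1 after LPS, and 390.3, 307.5 and 315.3 in the arrays labelled CstF-64. The LPS arrays were lowest and the labelled CstF-64 arrays highest, with no overlap between any of the 3 groups. Its log2 change after LPS was -1.28 (SE 0.14, limma adjusted p = 0.00025), and those of the other 4 probe sets lay between -1.19 and -0.70 with limma adjusted p from 0.00497 to 0.0181. Without untreated array 2, 3 of these 4 were no longer called. Dnmt3a, Dnmt1 and Uhrf1 were the 3 member genes with several probe sets of which every probe set fell.

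Of the other 2 DNA methylation genes, Dnmt3b was near background in all arrays and Dnmt3l in the untreated ones. Dnmt3b, the second de novo enzyme, did not exceed 37.0 in any array in either probe set, and its log2 changes after LPS were -0.22 (limma adjusted p = 0.604) and -0.78 (limma adjusted p = 0.0806). Dnmt3l, a cofactor of the de novo enzymes with no activity of its own, rose. It read 28.0, 18.9 and 36.1 untreated, 129.4, 44.1 and 62.4 after LPS, and 57.4, 83.9 and 90.9 in the arrays labelled CstF-64. LPS array 1 was the highest of the 9. The log2 change after LPS was 1.09 (SE 0.33, limma adjusted p = 0.0484), a call that was lost without LPS array 1 and in 9 more of 19 other settings.

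**Figure D2:**
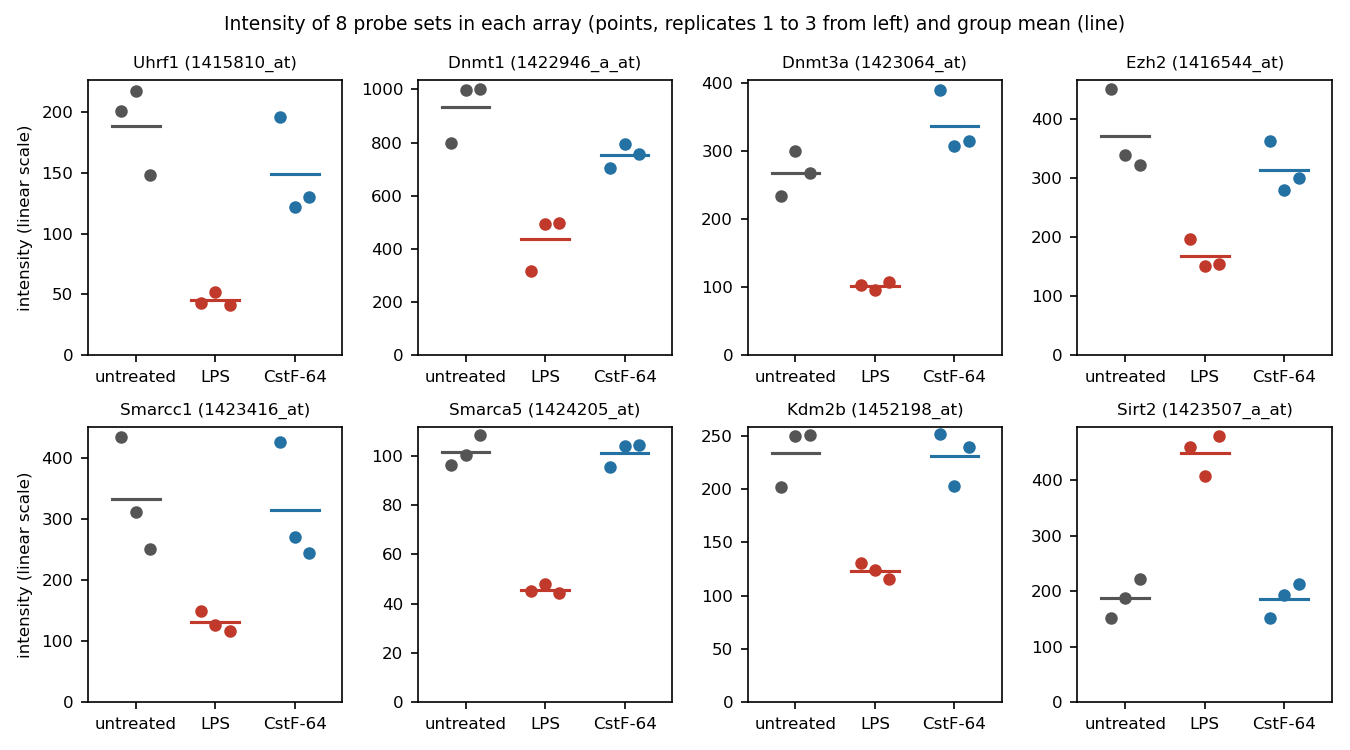
Intensity on a linear axis in each of the 9 arrays (points) with the group mean (line), for 8 probe sets. For Uhrf1, Dnmt1, Dnmt3a, Ezh2, Smarcc1, Smarca5 (1424205_at) and Kdm2b all 3 LPS arrays lie below all others, and for Sirt2 all 3 lie above, at 407.5 or more.

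Genes of dividing cells moved with these falls. All 11 measured markers of dividing cells (Mki67, Top2a, Ccna2, Mcm2 to Mcm7, Pcna and Rrm2) fell after LPS, with a median log2 change of -2.36. Their summed intensity was 10830 to 12128 untreated, 3381 to 3908 after LPS and 9102 to 12297 in the arrays labelled CstF-64, where none was called. Uhrf1, Dnmt1 and Ezh2 are known to be expressed most in dividing cells. The part of cell division in the falls was not tested, and in RNA from a whole culture fewer dividing cells and less RNA per cell cannot be told apart.

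Promoters of the changed genes were read from RefSeq sequence on GRCm38.p6, as windows of 300 bases from 250 before to 50 after a gene's start, which matched 52 of the 59 member genes. An E2F-type site, TTTCGCGC or TTTGGCGC on either strand, was searched because E2F factors bind such sites in genes of DNA replication. It occurred in 0.813% of 32851 windows and in 251 of 27025 genes (0.929%). The member genes with it were Uhrf1, Dnmt1 and Ezh2, all of them among the 11 lower member genes that had a window. The motif was chosen after the promoters and the changes had been seen, and a match of letters is neither a bound site nor a cause. The 3 sequences are shown because these genes fell after LPS and carry the match, which is in capitals. They are parts of the windows searched, 280 bases for Uhrf1 and Ezh2, and run 5′ to 3′ on the gene's strand, for Uhrf1 chr17:56304063-56304342 (plus strand), for Ezh2 chr6:47595001-47595280 (minus strand) and for Dnmt1 a stretch of 30 bases at chr9:20952824-20952853 (minus strand).
Uhrf1: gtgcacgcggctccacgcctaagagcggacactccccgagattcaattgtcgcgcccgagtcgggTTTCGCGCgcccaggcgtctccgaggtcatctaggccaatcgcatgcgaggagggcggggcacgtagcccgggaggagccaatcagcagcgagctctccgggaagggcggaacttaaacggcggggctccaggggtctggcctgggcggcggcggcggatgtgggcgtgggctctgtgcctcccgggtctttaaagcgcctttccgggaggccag
Ezh2: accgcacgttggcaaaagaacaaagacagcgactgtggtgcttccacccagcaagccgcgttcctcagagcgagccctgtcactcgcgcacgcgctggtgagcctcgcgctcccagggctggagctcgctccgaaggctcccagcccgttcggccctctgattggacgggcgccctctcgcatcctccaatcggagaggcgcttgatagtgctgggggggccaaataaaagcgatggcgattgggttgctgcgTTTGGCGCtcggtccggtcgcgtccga
Dnmt1: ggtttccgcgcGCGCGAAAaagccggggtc
The Uhrf1 match begins 185 bases before the start, in 1 of the 2 start windows of the gene. The Ezh2 match begins at base 4 after the start. The Dnmt1 match shown begins 219 bases before 1 of 3 starts and reads GCGCGAAA on the gene's strand, and a second match lies 34 bases after that start. Which start these cells use is not known.

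Ezh2, on chromosome 6, is the main H3K27 methyltransferase of dividing cells. It read 450.8, 338.2 and 321.6 untreated, 197.2, 151.5 and 154.7 after LPS, and 362.8, 279.1 and 299.2 in the arrays labelled CstF-64. No LPS array reached any other array. The log2 change after LPS was -1.08 (SE 0.17, limma adjusted p = 0.00206). Ezh1, the alternative catalytic subunit that resting cells also use, read 95.2, 106.5 and 104.9 untreated and 107.3, 122.4 and 106.1 after LPS (log2 0.12, 95% interval -0.24 to 0.47, limma adjusted p = 0.709).

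The remaining subunits of the complex gave mixed calls. Suz12, which holds the complex together, has 6 probe sets here and 2 of them fell. Probe set 1427253_s_at read 362.1, 383.7 and 397.6 untreated and 267.4, 230.5 and 202.6 after LPS (log2 -0.68, limma adjusted p = 0.0100), and 1449661_at changed by -0.96 (limma adjusted p = 0.0387, lost in 10 of 19 other settings). The brightest Suz12 probe set, 1420021_s_at, gave -0.45 (limma adjusted p = 0.104), its groups overlapping through LPS array 1. Eed, which binds the finished mark, read 380.2, 311.4 and 317.0 untreated and 393.4, 254.9 and 255.1 after LPS (log2 -0.18, limma adjusted p = 0.627). For Eed, too, LPS array 1 stood above its group. Without LPS array 1, 6 of the 11 probe sets of this family were lower, while the count over all probe sets went from 2414 to 2213.

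Among the remodellers, Smarcc1, Smarcd2, Smarce1 and Smarca5 each had a probe set that fell, and the other 8 genes had none. Smarcc1, a scaffold of the SWI/SNF complex, read 434.6, 311.5 and 251.2 untreated, 149.4, 126.9 and 117.0 after LPS, and 426.4, 271.4 and 245.0 in the arrays labelled CstF-64 in its brighter probe set. The LPS arrays were lowest without overlap, and the log2 change was -1.23 (SE 0.24, limma adjusted p = 0.00627). Its second probe set gave -0.69 (limma adjusted p = 0.175). Smarcd2, an accessory subunit known for its part in granulocyte formation, fell in 1448401_at, from 448.6, 434.3 and 436.9 to 177.4, 311.5 and 290.6 (log2 -0.77, limma adjusted p = 0.0214). That call was lost without any 1 of the 3 untreated arrays, and the brightest Smarcd2 probe set gave -0.61 (limma adjusted p = 0.138). Smarca4 (BRG1), the ATPase that macrophages use at inducible genes, read 573.2, 735.7 and 616.2 untreated and 511.1, 568.1 and 543.5 after LPS (log2 -0.23, 95% interval -0.51 to 0.04, limma adjusted p = 0.244). Smarca2 (BRM), the alternative ATPase, gave -0.70 (limma adjusted p = 0.0519), and Smarcb1, a core SWI/SNF subunit, -0.50 (limma adjusted p = 0.106). Without LPS array 1, 6 Smarc probe sets were lower, and without untreated array 2, 2 were. The counts over all probe sets in these settings were 2213 and 1475, against 2414 with all arrays.

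Smarca5 and Smarce1 were the 2 member genes whose probe sets changed unequally after LPS. The test, limma's diffSplice F test over the probe sets of 1 gene, called 277 of 4956 genes with 2 or more probe sets, 5.59%, and 2 of 31 member genes, 6.45%, so the share among the members was near that of the whole table. Smarca5 (SNF2H), the motor of the ISWI remodellers, read 96.3, 100.2 and 108.3 untreated and 45.1, 47.8 and 44.2 after LPS in 1424205_at (log2 -0.96, limma adjusted p = 0.00103). In 1424206_at it read 464.2, 472.7 and 412.1 untreated and 442.3, 370.8 and 393.2 after LPS (log2 -0.16, limma adjusted p = 0.431), and its groups overlapped. In 1424207_at the change was -0.52 (limma adjusted p = 0.0405). The adjusted p for unequal change of Smarca5 was 0.0160 (diffSplice).

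Smarce1 (BAF57), a DNA-binding subunit of SWI/SNF, showed the same split. Probe set 1422676_at read 112.4, 109.3 and 76.7 untreated and 33.3, 52.2 and 59.4 after LPS (log2 -0.88, limma adjusted p = 0.0195). Probe set 1422675_at read 59.5, 63.4 and 70.3 untreated and 61.9, 66.8 and 70.7 after LPS (log2 0.04, limma adjusted p = 0.906). The first pair of groups did not overlap and the second did, with an adjusted p for unequal change of 0.0296 (diffSplice). Where these probe sets lie on the transcripts was not analysed here. Neither gene was called after quantile normalization, nor without untreated array 2 or LPS array 1, and 1 of them was left without untreated array 1 or 3, LPS array 2 or 3, or CstF-64 array 2. In the arrays labelled CstF-64, whose factor acts in 3′ end formation, no member was unequal, beside 2 of 4956 genes (0.0404%) over the whole table.

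**Figure D3:**
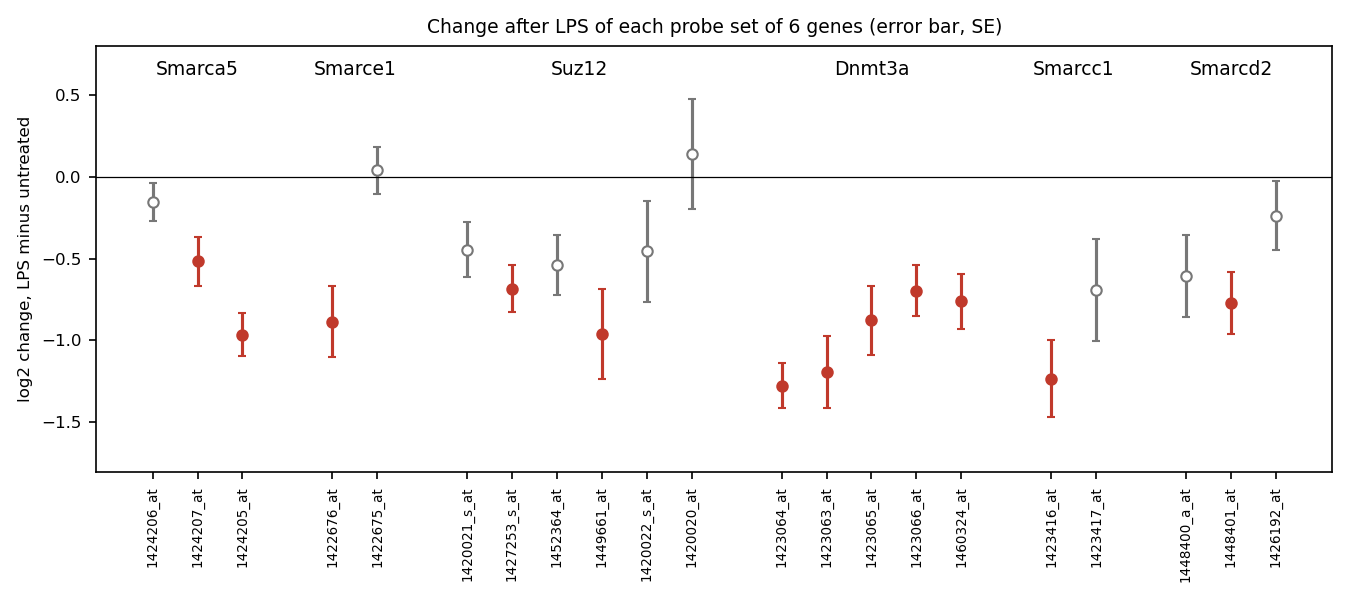
Log2 change after LPS of each probe set of 6 genes, with the SE as error bar and filled points for an adjusted p under 0.05. The points of Smarca5 spread from -0.96 to -0.16 and those of Smarce1 from -0.88 to 0.04, while all 5 points of Dnmt3a are filled and lie between -1.28 and -0.70.

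Among lysine demethylases and methyltransferases, 3 genes fell and 1 rose. Kdm2b, which demethylates H3K36 and brings a Polycomb complex to CpG islands, fell from 202.3, 249.7 and 250.7 to 130.8, 124.5 and 115.5, without overlap (log2 -0.85, limma adjusted p = 0.00227). Kdm3b, an H3K9 demethylase, fell from 193.6, 218.1 and 260.4 to 123.6, 169.8 and 148.0 (log2 -0.57, limma adjusted p = 0.0313), a call lost in 8 of 19 other settings. Kmt5c, which adds methyl groups to H4K20 in heterochromatin, fell from 257.8, 250.0 and 307.4 to 157.0, 178.6 and 153.9 (log2 -0.69, limma adjusted p = 0.00799). These 3 genes had LPS arrays wholly below the untreated ones. Setd4 rose in 1460373_a_at, from background values of 15.2, 28.5 and 22.8 to 67.3, 32.9 and 45.3, at least 1.49-fold (log2 0.79, limma adjusted p = 0.0432). The brightest Setd4 probe set, 1425239_at, gave 0.38 (limma adjusted p = 0.242) and 1435405_at 0.07 (limma adjusted p = 0.878). The call of 1460373_a_at was lost in 11 of 19 other settings.

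Several well-known enzymes of both families did not pass. Kdm1a (LSD1), which demethylates H3K4, changed by -0.10 (limma adjusted p = 0.741) and Kdm6a (UTX), an H3K27 demethylase, by -0.24 (limma adjusted p = 0.439). Kmt2a (MLL1), an H3K4 methyltransferase, gave -0.08 (95% interval -0.34 to 0.18, limma adjusted p = 0.738), and Kmt5a, the H4K20 monomethyltransferase, 0.16 (95% interval -0.56 to 0.89, limma adjusted p = 0.81). Setdb1, an H3K9 methyltransferase that silences retroelements, read 329.6, 303.7 and 373.0 untreated and 273.6, 228.1 and 249.8 after LPS, without overlap (log2 -0.40, limma adjusted p = 0.0583). The arrays of Kmt5a spread widely in each group, from 152.6 to 306.9 untreated and from 154.0 to 328.1 after LPS. Without LPS array 1, 5 of the 25 Kmt and Setd probe sets were lower, where 1 was with it. The count over all probe sets was 2213 without that array and 2414 with it.

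Of the class I histone deacetylases, Hdac1 read 533.7, 371.1 and 337.3 untreated and 416.5, 262.7 and 258.0 after LPS (log2 -0.40, limma adjusted p = 0.281), and its groups overlapped. Hdac2 read 200.4, 177.3 and 169.3 untreated and 120.0, 142.5 and 133.5 after LPS, without overlap (log2 -0.43, limma adjusted p = 0.105). Hdac3, the catalytic part of the NCoR corepressor, gave 0.13 (95% interval -0.23 to 0.49, limma adjusted p = 0.666). The call in this family was Hdac9, a class IIa member, whose values lay at or below background in all 9 arrays, so no fold is given (limma adjusted p = 0.048).

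Sirt2, a mainly cytoplasmic deacetylase on chromosome 7, was the member with the largest rise on the log2(intensity + 13) scale. As a ratio of group means Dnmt3l, near background in the untreated arrays, rose more, 2.84 against 2.40. Sirt2 read 151.2, 187.4 and 222.4 untreated, 458.9, 407.5 and 478.5 after LPS, and 152.2, 193.3 and 213.0 in the arrays labelled CstF-64. The LPS arrays lay above all others, and the log2 change was 1.22 (SE 0.17, limma adjusted p = 0.000993). In the arrays labelled CstF-64 the log2 difference from untreated was 0.00 in size, with a 95% interval from -0.37 to 0.37. Sirt1, a nuclear deacetylase of the family, gave -0.41 after LPS (limma adjusted p = 0.182). Sirt4, a mitochondrial member, read 25.5, 25.3 and 12 untreated and 62.9, 48.2 and 32.7 after LPS (log2 0.84, limma adjusted p = 0.0957).

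The 43 member genes with no probe set called after LPS are given by the range of their brightest probe sets. The 7 uncalled Hdac genes ran from -0.46 (Hdac5) to 0.17 (Hdac7), the 10 Kdm genes from -0.36 (Kdm8) to 0.64 (Kdm5b), the 11 Kmt and Setd genes from -0.40 (Setdb1) to 0.16 (Kmt5a), the 8 Smarc genes from -0.70 (Smarca2) to 0.38 (Smarca1) and the 4 Sirt genes from -0.41 (Sirt1) to 0.84 (Sirt4). Ezh1, Eed and Dnmt3b make up the rest. Of the 103 probe sets, 88 exceeded the background limit in at least 1 array, 71 did so in all, and 15 lay at or below it throughout, Hdac9, Kdm8 and Smarca1 among them.

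Single arrays decided some of the calls after LPS. The probe sets 1423065_at and 1460324_at of Dnmt3a were not called without untreated array 2, and 1423066_at of the same gene without untreated array 2 or 3. Smarce1 was not called without untreated array 1 or 2. Kdm3b was lost without untreated array 2 or 3, LPS array 1 or 3, or CstF-64 array 2, and Smarca5 in 1424207_at without any 1 of arrays 2 and 3 of each group. Suz12 in 1449661_at, Dnmt3l, Setd4 and Hdac9 were lost without any 1 of the untreated arrays, among others. The falls of Uhrf1, Dnmt1, Ezh2, Smarcc1 (1423416_at), Smarca5 (1424205_at), Suz12 (1427253_s_at), Kdm2b and Kmt5c, those of Dnmt3a in 1423063_at and 1423064_at, and the rise of Sirt2 were called in all 19 other settings.

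The promoter of Sirt2 is shown because its window was the single one among the members with an NF-kappaB-type site, GGGANTTNCC on either strand. That motif was searched because NF-kappaB is the main factor that LPS activates, and it occurred in 1.20% of windows and in 372 of 27025 genes (1.38%). The stretch printed, chr7:28766502-28766781 (plus strand), holds the first 280 of the 300 bases searched, with the match in capitals.
Sirt2: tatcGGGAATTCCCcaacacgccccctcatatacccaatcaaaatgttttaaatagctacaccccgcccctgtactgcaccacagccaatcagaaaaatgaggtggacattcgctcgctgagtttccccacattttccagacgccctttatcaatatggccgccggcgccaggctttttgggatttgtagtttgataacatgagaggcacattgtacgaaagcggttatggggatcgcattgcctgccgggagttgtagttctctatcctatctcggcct
The match begins 246 bases before the start and reads the same on both strands. As for the E2F-type site, the search was chosen after the changes had been seen, and the match is a description of the letters.

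In the arrays labelled CstF-64, no member passed limma's threshold against untreated, where 0.248% of all probe sets did (56 of 22626). At an unadjusted p under 0.05 there were 7 of 103 members, 6.80%, beside 6.45% over all probe sets. The groups did not overlap in 16 of 103 members (11 below and 5 above untreated), 15.5% beside 12.9% over all probe sets. Both shares are near those of the whole table. The comparison shares its untreated arrays with that after LPS.

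Dnmt3l had the smallest p of the members in this comparison, with all 3 labelled arrays above the untreated ones (log2 1.15, 95% interval 0.43 to 1.88, limma adjusted p = 0.407). With array weights it was the 1 member called (log2 1.30, limma adjusted p = 0.036). Uhrf1 in 1415811_at read 55.0, 58.7 and 54.4, below each untreated array (log2 -0.53, 95% interval -0.98 to -0.08, limma adjusted p = 0.662). Dnmt3a in 1423064_at lay above untreated (log2 0.32, limma adjusted p = 0.763), and Kmt2a in 1452377_at read 72.1, 61.4 and 67.6 against 111.1, 84.4 and 94.7 (log2 -0.45, limma adjusted p = 0.623). The other 3 with an unadjusted p under 0.05 were Dnmt1 in 1435122_x_at (-0.36), Sirt7 (0.34) and Hdac9. For Ezh2 the difference was -0.22 with a 95% interval from -0.60 to 0.15, and for Smarca4 -0.24 with one from -0.51 to 0.03.

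Set directly against the LPS arrays, the arrays labelled CstF-64 were higher in 17 member probe sets (16.5%) from 11 genes (limma adjusted p under 0.05). They were lower in 2 (1.94%). Over all probe sets, 9.43% were higher and 5.79% lower. Both comparisons with LPS use the same 3 LPS arrays, so that a low LPS value counts in each. The probe sets that were higher were those of Uhrf1, Dnmt1 and Dnmt3a, 9 in all, with Ezh2, Suz12 (1427253_s_at), Smarcc1, Smarca5 (1424205_at), Kdm2b and Kmt5c. The log2 difference was 1.60 (SE 0.14, limma adjusted p = 6.69e-05) for Dnmt3a in 1423064_at, 1.45 (limma adjusted p = 0.00127) for Uhrf1 in 1415810_at and 0.85 (limma adjusted p = 0.00755) for Ezh2. The remaining calls were Smarca2 in 1430526_a_at (0.78, limma adjusted p = 0.0361) and Smarcad1 in 1452276_at (0.55, limma adjusted p = 0.0429). Smarcad1 is a remodeller that acts in heterochromatin upkeep. These calls were lost in 11 and 10 of 19 other settings. The other probe set of Smarca2 gave 0.39 (limma adjusted p = 0.241) and that of Smarcad1 -0.18 (limma adjusted p = 0.679). Sirt2 was lower in the labelled CstF-64 arrays (log2 -1.22, limma adjusted p = 0.00103). Sirt4 was lower too (-1.15, limma adjusted p = 0.0321), with background values of 8.7, 8.5 and 28.8 in the labelled arrays. Without CstF-64 array 2 or 3, Dnmt1 in 1422946_a_at, Suz12, Kmt5c, Smarca2 and Smarcad1 were no longer called, and without LPS array 3 all of these but Dnmt1 were lost. Sirt4 was lost without LPS array 1 or 2 or CstF-64 array 1 or 2. The dividing-cell markers differ between these groups in the same direction as the falls, as given above.

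Partners of these enzymes that the symbol rule does not take were read from 8 lists of 158 genes, of which 120 were measured. By their brightest probe sets, 28 of the 120 fell after LPS (23.3%) and 4 rose, with a median log2 change of -0.20, beside 10 of the 59 member genes (16.9%) and 10.4% of all genes. Without untreated array 1, untreated array 2 or LPS array 3, 20 of the 120 fell and 3 rose. Median centring gave 19 lower and 6 higher. None of the 120 was called in the arrays labelled CstF-64.

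Polycomb partners fell in 5 of 19 cases, among them Cbx6 (log2 -1.52, limma adjusted p = 0.000664), a reader of H3K27 methylation, and Rbbp7 (-1.12, limma adjusted p = 0.00339), a histone chaperone shared with deacetylase complexes. SWI/SNF and ISWI subunits outside the Smarc name fell in 5 of 19, among them Arid1a (-0.68, limma adjusted p = 0.00368), the DNA-binding subunit of the BAF complex, and Baz1b (-0.69, limma adjusted p = 0.00311), a partner of Smarca5. CHD, INO80 and NuRD genes fell in 5 of 19. Hells, a remodeller needed for DNA methylation, fell from 410.8, 310.0 and 212.8 to 65.1, 113.5 and 82.0 (-1.68, limma adjusted p = 0.0037), and Ruvbl2, an ATPase of INO80, fell too (-0.75, limma adjusted p = 0.00887). No LPS array of Hells reached an untreated one.

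Heterochromatin readers were in the list of other demethylases and readers, where 4 of 15 fell and 2 rose. The 3 HP1 genes were called, not all in the same direction. Cbx5 (HP1 alpha) fell from 337.3, 345.8 and 359.3 to 65.3, 117.2 and 98.3 (log2 -1.79, limma adjusted p = 0.000129), and Cbx1 (HP1 beta) fell too (-1.12, limma adjusted p = 0.0009). Cbx3 (HP1 gamma) rose from 36, 30.5 and 28.2, values near background, to 55.8, 53.1 and 48.2 (0.55, limma adjusted p = 0.042). Trim28 (KAP1), which brings Setdb1 to silenced repeats, fell as well (-0.98, limma adjusted p = 0.000602). The other gene of this list that rose was Brd2, from 321.6, 352.8 and 303 to 501.1, 553.8 and 553.9 (0.70, limma adjusted p = 0.00295). Among other methyltransferases and MLL subunits, 4 of 17 fell and 1 rose. Prmt2, an arginine methyltransferase, rose from 199.4, 195.2 and 212.3 to 677.1, 443.9 and 534.1 (log2 1.37, limma adjusted p = 0.00029), while Prmt3, which methylates a ribosomal protein, fell (-0.95, limma adjusted p = 0.00205). Of 15 acetyltransferase genes 3 fell, among them Kat2a (GCN5) (-1.06, limma adjusted p = 0.00646). Of 12 corepressor genes Sin3b rose (0.68, limma adjusted p = 0.00465) and Tbl1xr1 fell (-0.64, limma adjusted p = 0.0484). Of 4 DNA demethylation genes and methyl-CpG readers, Mbd4 fell (-0.85, limma adjusted p = 0.0345).

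**Figure D4:**
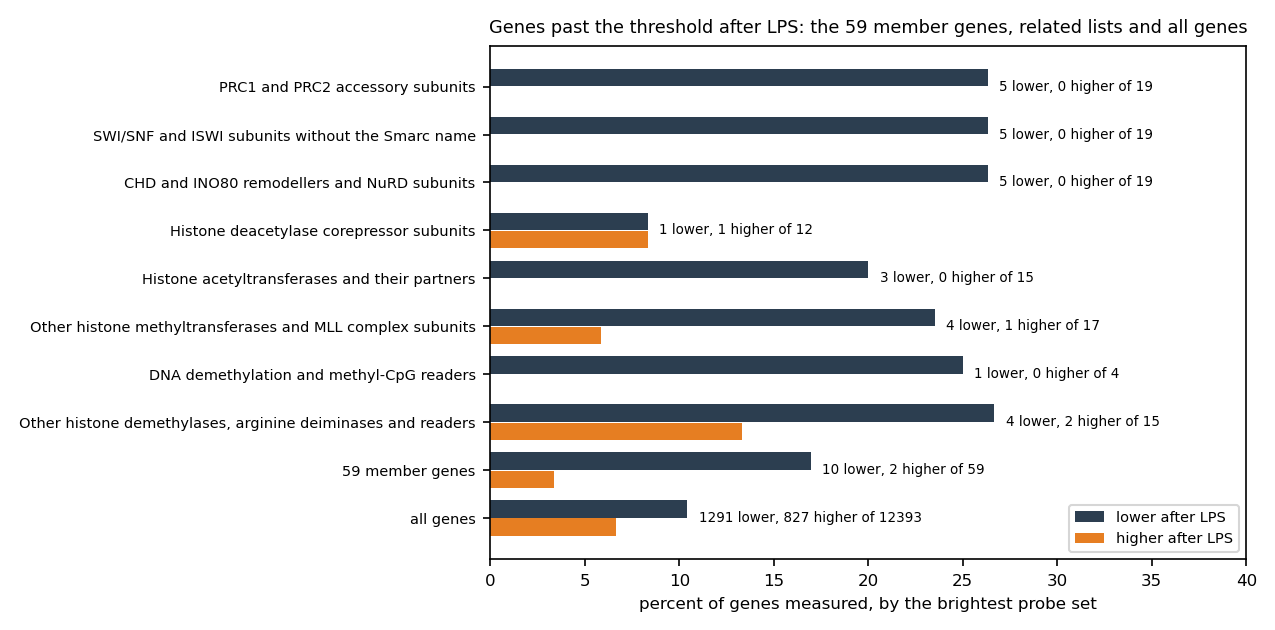
Percent of genes lower and higher after LPS (bars), by the brightest probe set, for the 8 lists of partners, the 59 member genes and all genes, with the counts beside the bars. More genes were lower than higher in each list except the corepressors, where 1 was lower and 1 higher of 12; over all genes the shares were 10.4% and 6.67%.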

How the data were processed

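Total RNA of RAW 264.7 cells was measured on 9 arrays, 3 per group. The authors deposited 1 linear intensity per probe set and array, and the sources used here do not give the software, background correction or normalization. The table holds 22690 probe sets, of which 64 controls were left out of the tests. The number of arrays limits the precision.

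Values were used as deposited, on the scale log2(intensity + 13), which understates changes of dim probe sets. Genes were named from the platform annotation, which gave 1 gene for 20380 probe sets, several for 691 and none for 1555. A model with 1 mean per group was fitted to all 9 arrays and 22626 probe sets with limma 3.58.1 in R 4.3.3 (lmFit, eBayes with an intensity trend; tests two-sided, p-values adjusted by Benjamini-Hochberg over all probe sets), after a check on simulated data. Unequal change between probe sets of 1 gene was tested with diffSplice. A fold against values at or below background (31.2) is given against that limit.

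Alternatives were quantile normalization, median centring, pseudocounts of 1 and 50, dim probe sets left out, no intensity trend, a robust prior, array weights, only the groups compared, a replicate block and leaving out each array in turn.

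Members and lists were chosen with earlier results of these data known. Named members were well-known enzymes and, per comparison, the 12 called genes with the largest change, those with unequal probe sets and the other called ones; partners were up to 3 per list by adjusted p, and Tbl1xr1 and Sin3b are among these. Sirt7, Smarcb1, Cbx3, Brd2, Hdac5, Hdac7, Kdm5b, Kdm8 and Smarca1 fall outside this rule and were named after their values were seen.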

Additional observations from a re-analysis of the deposited data

How the results depend on the processing

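Of the 24 member probe sets called after LPS, 13 were called in every alternative that gave a value and 11 were lost in at least 1, and no called member reversed. The 21 lower members (2414 over all probe sets) were 12 under median centring (1455), 38 with array weights (3217), 10 when counted as genes by the brightest probe set (1291), and 12 (without untreated array 2) to 28 (without LPS array 1) when 1 array was left out. The 3 higher members (1341 over all probe sets) were 5 under median centring (2228), 1 with only the groups compared, 1 with the replicate block and 1 to 3 without 1 array. With all 9 arrays blocked by replicate number, 24 members were lower after LPS (2419 over all probe sets). In the arrays labelled CstF-64, array weights gave 1 higher member (106 over all probe sets, 23 without weights), and 0 were lower in every setting. Against LPS, the 17 higher members (2133 over all probe sets) were 32 with array weights (3409), 9 as genes (1179), 21 with the replicate block and 12 to 22 without 1 array. The 2 lower ones were 1 with dim probe sets left out, array weights, only the groups compared or the replicate block, and 1 to 2 without 1 array. The 2 genes with unequal probe sets after LPS were 0 after quantile normalization and 0 to 2 without 1 array. The causes were not tested. The replicate numbers were not taken to pair the arrays: deviations of same-numbered arrays correlated between -0.13 and 0.24, above 0.1 in 3 of 9 pairs, and 2 of 9 arrays correlated best with their own number in both other groups. Signal limits 15 of the 103 members, which lay at or below background in all 9 arrays.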

Other observations

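LPS array 1 was highest of the 3 LPS arrays in 66 of 103 member probe sets (64.1%), beside 49.2% of all 22626 probe sets. It was the lowest in 25 of 103 members, beside 7211 of all 22626 probe sets. It was the highest in 9 of 10 Hdac, 14 of 16 Kdm, 18 of 25 Kmt and Setd and 9 of 11 Polycomb repressive complex 2 probe sets, and in 12 of 24 Smarc, 3 of 12 DNA methylation and 1 of 5 Sirt probe sets. No test compared the families. The labels give no date or other batch for the arrays.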
